A study of Mus musculus with 26 samples.

Results

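The chemokine receptor genes *Ccr7*, *Ccr9*, *Cxcr4*, *Cxcr3*, *Cxcr5*, *Cxcr6*, *Cx3cr1*, *Ccr2* and *Ccrl2* were followed across 14 low-input RNA-seq libraries of Tg101 T cells. The 9 genes were listed by symbol, not by a threshold on their values, out of 35865 genes with a value, but with earlier results of these data known. On GRCm38 *Cxcr5* (chr9:44511787-44561877), *Ccrl2* (chr9:111054486-111057519), *Cx3cr1* (chr9:119901616-120069879), *Ccr9* (chr9:123678439-123784330), *Cxcr6* (chr9:123806475-123811760) and *Ccr2* (chr9:124101950-124113557) lie on chromosome 9, *Ccr7* at chr11:99144196-99155077, *Cxcr4* at chr1:128588199-128592293 and *Cxcr3* at chrX:101731535-101734269. Tg101 T cells are CD8+ T cells whose transgenic T cell receptor came from 1 CD8+ clone specific for C1498, a C57BL/6 acute leukemia line. Per the study's methods, the transgene was carried on a Rag2-/- background. By those methods, cells followed over time were adoptively transferred into B6.SJL or C57BL/6 recipients and later sorted by flow cytometry. The labels give strain C57BL/6, genotype wild type and age 6 weeks for every sample. The 3 control libraries came from spleens without leukemia, and they comprised naive Tg101 T cells at day 0 (replicates 1 and 2) and Tg101 T cells of untreated mice at day 18 (replicate 3). Undivided cells (CTVhi, which kept the dye CellTrace Violet that is diluted at each division) were 1 library from spleen of leukemia-bearing mice at day 18. Leukemia-bearing mice also gave 2 early spleen libraries (day 7), 1 mid spleen library (day 14), 2 early liver libraries (day 7), 3 mid liver libraries (days 13 and 14) and 2 late liver libraries (days 16 and 18). The labels do not tie libraries to animals, so p-values measure the spread between these libraries.

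Chemokine receptors are G protein-coupled receptors that steer migrating leukocytes along gradients of small secreted chemokines. In naive CD8+ T cells, CCR7 serves entry into lymph nodes and the T cell zone of the spleen, whereas CXCR3 and related receptors are known from activated T cells that enter inflamed tissue. Their mRNA level is set by transcription and decay and need not follow the amount of receptor on the cell surface.

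Estimated counts per low-input library ranged from 22918996 to 71358287. Levels are given as CPM (estimated counts relative to the depth of the library, scaled by TMM, which corrects for library composition), and titles place the libraries in a TG and an XC series, taken as the sequencing batch. Control replicate 1, mid liver replicate 1 and late liver replicate 1 were of the TG series and the other libraries of the XC series. All 11 CD8 T cell markers were detected, and their summed level was 7071 to 8631 CPM in controls, 6647 to 8473 in mid liver and 6811 to 10593 in late liver. The 15 monocyte and macrophage markers summed to 1341 and 192 CPM in the day 0 controls, 19.9 in the day 18 control, 14.7 to 49.2 in mid liver and 34.3 to 61.0 in late liver. The 9 neutrophil markers summed to 13.7 to 253 CPM in controls and at most 2.51 in mid and late liver libraries. Called lower at mid were 9 of 11 monocyte and macrophage markers tested, 4 of 4 neutrophil markers, 3 of 5 B cell markers and 5 of 5 red cell markers, and at late 5, 4, 1 and 1 of them, while 5 of 6 hepatocyte markers were called higher at both times. The 9 hepatocyte markers summed to 319, 22.3 and 1.49 CPM in controls, 244, 24.5 and 4.05 in mid liver and 410.2 and 101 in late liver, so that control replicate 1 lay within the range of the late libraries. The part that these other cells had in the receptor levels was not tested, and in bulk RNA fewer cells of a type and less RNA per cell cannot be told apart. Control and undivided libraries were from spleen, so leukemia, time and tissue cannot be told apart when liver libraries are compared with controls. Time here includes the stay in a recipient after transfer, which the day 0 controls had not had.

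In the livers of leukemia-bearing mice, *Ccr9*, *Ccr7* and *Cxcr4* were lower than in controls and *Cxcr3* and *Cxcr5* were higher at the mid time point. At the late time point *Ccr9* and *Ccr7* were lower and *Cxcr3*, *Cx3cr1* and *Ccrl2* were higher. All 9 genes passed the count filter. At mid, 5 of the 9 passed an adjusted p threshold of 0.05 in the quasi-likelihood test of edgeR (2 higher, 3 lower), where 31.3% of the 14600 genes tested were called (17.3% higher, 13.9% lower). At late, 5 of the 9 changed (3 higher, 2 lower), where 37.5% of all genes were called (19.8% higher, 17.7% lower). The median log2 fold change of the 9 was 0.55 at mid and 1.22 at late, against -0.06 and -0.03 over all genes tested. Both comparisons share the same 3 control libraries. As the list was made with earlier results of these data known, the shares and medians describe it and do not test it.

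**Figure D1:**
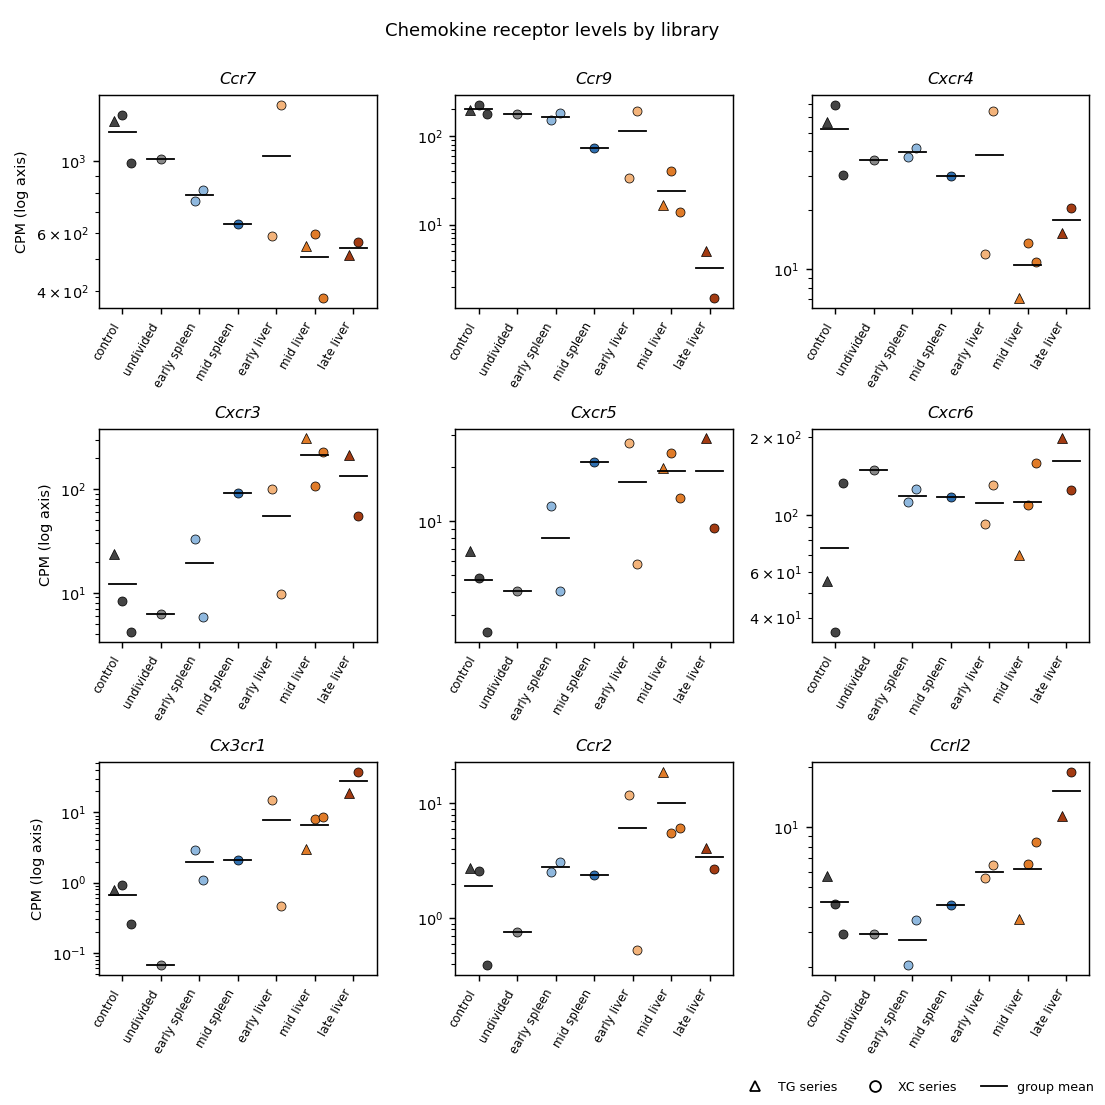
Level of each of the 9 receptors in CPM (log axes with a range of their own) in each of 14 libraries, by group, with triangles for the TG series, circles for the XC series and lines for group means. Ccr9 falls from 176 to 224 CPM in controls to 1.47 and 5.003 in late liver, and the 2 early liver libraries lie far apart for most receptors.

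*Ccr9* encodes the receptor for CCL25 and is known for homing to the small intestine and for its expression on thymocytes and naive CD8+ T cells. It stood at 198, 224 and 176 CPM in control replicates 1 to 3 (199 ± 23.8, SD, n = 3). Mid liver libraries held 16.7, 40.4 and 14.0 CPM (23.7 ± 14.5, n = 3) and late liver libraries 5.003 and 1.47 CPM. Every liver library at these times was below every control. The mid mean was 8.41-fold and the late mean 61.5-fold below the control mean. The log2 fold change was -3.08 (SE 0.77, adjusted p = 0.0276 by edgeR, quasi-likelihood, Benjamini-Hochberg, as for all adjusted p-values given here unless DESeq2 is named) at mid and -6.03 (SE 1.09, adjusted p = 0.0121) at late. This was the largest late fold change of the 9 by size.

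*Ccr7*, the receptor for CCL19 and CCL21, was at 1325, 1385 and 986 CPM in controls. It was at 550.2, 596 and 379 CPM in mid liver and at 514 and 565 CPM in late liver. Each of these 5 liver libraries was below the lowest control, and the late libraries were not below the mid libraries. The mid mean was 2.42-fold and the late mean 2.28-fold below control, with log2 fold changes of -1.30 (SE 0.34, adjusted p = 0.0272) and -1.22 (SE 0.39, adjusted p = 0.0393). *Ccr7* nevertheless kept the highest level per length of the 9 receptors in every group, on the deposited TPM scale.

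*Cxcr4*, the receptor for CXCL12, which is known for retention of leukocytes in bone marrow, was at 56.7, 69.1 and 30.4 CPM in controls. The mid liver libraries held 7.07, 13.5 and 10.8 CPM, and the late liver libraries 15.3 and 20.4 CPM. Both liver groups lay below the controls without overlap. At mid the fold change on the log2 scale was -2.38 (SE 0.62, adjusted p = 0.0292), a 4.97-fold lower mean. At late it was -1.54 (SE 0.69, adjusted p = 0.109), which did not pass the threshold, and the late libraries lay above all 3 mid libraries.

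*Cxcr3*, the receptor for the interferon-induced chemokines CXCL9, CXCL10 and CXCL11, had the largest mid fold change of the 9. Control libraries held 23.9, 8.32 and 4.18 CPM. Mid liver libraries held 309.7, 107 and 228 CPM, and late liver libraries 217 and 54.8 CPM. No liver library of these times was as low as a control. The mean was 17.7-fold higher at mid and 11.2-fold higher at late, with log2 fold changes of 4.39 (SE 0.87, adjusted p = 0.0220) and 3.19 (SE 0.87, adjusted p = 0.0279).

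*Cxcr5*, the CXCL13 receptor known from B cell follicles and from a T cell subset with follicular traits, was low in every group. Its level was 6.74, 4.80 and 2.40 CPM in controls, 19.8, 23.8 and 13.5 CPM in mid liver and 28.8 and 9.15 CPM in late liver. Each liver library of these times was above each control. The log2 fold change was 2.11 (SE 0.61, adjusted p = 0.0357) at mid and 1.76 (SE 0.66, adjusted p = 0.0668) at late, so that the late difference did not pass the threshold. The 8 B cell markers summed to 24.4 to 41.4 CPM in controls, 12.5 to 45.2 in mid liver and 13.5 to 34.2 in late liver. *Cxcr5* overlaps *Bcl9l* on the opposite strand (mean 94.8 CPM over the 14 libraries), and the part of its reads was not tested.

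*Cx3cr1*, the receptor for CX3CL1 (fractalkine), marks effector subsets of CD8+ T cells and also monocytes and macrophages. It was at 0.79, 0.92 and 0.26 CPM in controls, from 53, 47 and 8 estimated counts. It was at 3.05, 8.19 and 8.73 CPM in mid liver and at 19.1 and 37.9 CPM in late liver, and each step from control to mid to late was free of overlap between libraries. The log2 fold change was 3.12 (SE 1.12, adjusted p = 0.0681) at mid, which missed the threshold, and 5.34 (SE 1.24, adjusted p = 0.0185) at late. Of 11 monocyte and macrophage markers tested, 5 were called lower and 0 higher at late. *Csf1r* was at 185, 31.4 and 3.63 CPM in controls against 2.26 and 0.99 in late liver. The summed markers of the day 18 control (19.9 CPM) were nevertheless below those of both late libraries (61.0 and 34.3 CPM). The part of these cells in the *Cx3cr1* level was not tested. The annotated span of *Cx3cr1* also overlaps other genes. Among them *Csrnp1* (mean 80.9 CPM over the 14 libraries) and *Gorasp1* (7.91 CPM) lie on the same strand and *Wdr48* (75.9 CPM) on the opposite strand. The part of their reads in the *Cx3cr1* level was not tested either.

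*Ccrl2*, an atypical receptor that binds the chemoattractant chemerin without known G protein signalling, was at 5.68, 4.12 and 2.92 CPM in controls. Mid liver libraries held 3.49, 6.56 and 8.40 CPM, which overlapped the controls (log2 fold change 0.43, SE 0.41, adjusted p = 0.423). Late liver libraries held 11.3 and 18.9 CPM, above every control and every mid library, with a log2 fold change of 1.78 (SE 0.44, adjusted p = 0.0178).

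*Cxcr6*, the CXCL16 receptor known from tissue-resident T cells including those of the liver sinusoids, did not pass the threshold at either time. Its control libraries were unlike, with 55.6 and 35.3 CPM at day 0 and 133 CPM at day 18. Mid liver libraries held 70.1, 109 and 158 CPM (log2 fold change 0.55, SE 0.50, adjusted p = 0.408) and late liver libraries 197 and 124 CPM (1.22, SE 0.58, adjusted p = 0.126), and both groups overlapped the controls. Against the day 0 controls alone the late fold change was 1.79 on the log2 scale with an adjusted p of 0.0316. *Cxcr6* lies on chromosome 9 within *Fyco1*, a gene on the opposite strand that encodes an adaptor of vesicle transport, and whether the libraries kept strand is not given in the sources used here. *Fyco1* was at 68.1, 118 and 124 CPM in controls, 21.1, 57.6 and 45.5 in mid liver and 17.0 and 37.2 in late liver (log2 fold change at late -1.83, SE 0.29, adjusted p = 0.00925). The part of *Fyco1* reads in the *Cxcr6* level was not tested.

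*Ccr2*, the receptor for CCL2 and CCL7 and best known from inflammatory monocytes, was at 2.74, 2.60 and 0.39 CPM in controls. It was at 18.8, 5.47 and 6.06 CPM in mid liver, each above each control, and at 4.11 and 2.66 CPM in late liver. The log2 fold change was 2.22 (SE 1.03, adjusted p = 0.128) at mid and 0.65 (SE 1.10, adjusted p = 0.656) at late.

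Counted over libraries, 7 of the 9 receptors did not overlap between mid liver and control (4 higher, 3 lower), where this held for 42.7% of all genes (21.8% higher, 20.9% lower). Between late liver and control it held for 7 of the 9 (4 higher, 3 lower), against 56.5% of all genes (28.7% higher, 27.7% lower).

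**Figure D2:**
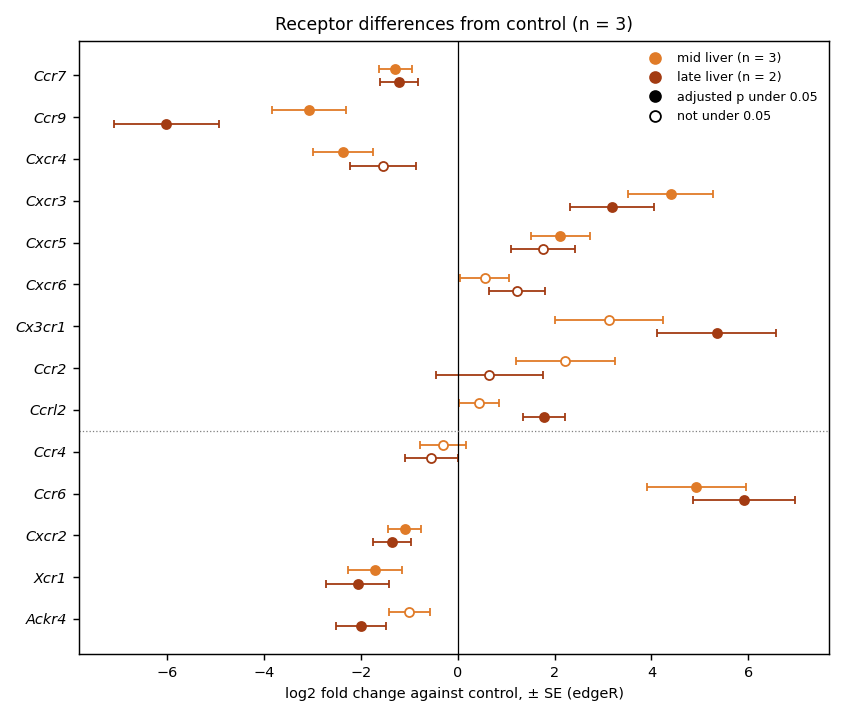
Log2 fold change against control (x axis, with SE from edgeR) of the 9 receptors above the dotted line and of 5 other receptors below it, for mid liver (n = 3, upper point) and late liver (n = 2, lower point) against 3 controls, filled where the adjusted p was under 0.05. Ccr9 has the lowest value at late (-6.03) and Cxcr3 the highest of the 9 at mid (4.39).

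Within each series the directions were mostly shared. In the TG series, with 1 library a group, the mid to control ratio was 13.0 for *Cxcr3*, 0.0843 for *Ccr9*, 0.125 for *Cxcr4*, 0.415 for *Ccr7* and 2.93 for *Cxcr5*, and in the XC series it was 26.8, 0.136, 0.245, 0.411 and 5.18. The late to control ratio was 0.0253 for *Ccr9*, 24.0 for *Cx3cr1*, 9.07 for *Cxcr3* and 1.99 for *Ccrl2* in the TG series, and 0.00737, 64.4, 8.77 and 5.36 in the XC series. *Ccrl2* at mid was lower than control in the TG series (ratio 0.613) and higher in the XC series (ratio 2.13). With the XC libraries alone, 0 of the 9 receptors and 0 of all genes were called at mid or late, and DESeq2 on all 11 libraries called 7 of the 9 (and 5453 genes in all, against 4567 by edgeR) at mid and 8 of the 9 (and 6209 genes, against 5475) at late. The calls also rested on single libraries, for the receptors and for all genes alike. At mid, 0 receptors were called without control replicate 1 or 2 (1 gene in all each time) or without mid liver replicate 1 or 3 (0 genes in all). At mid, 3 receptors were called without control replicate 3 (2355 genes in all) and 3 without mid liver replicate 2 (3157 genes in all). At late, 0 receptors and 0 genes were called without either late liver library. At late, 1 receptor was called without control replicate 1 (148 genes in all), 1 without control replicate 2 (3390 genes) and 5 without control replicate 3 (4126 genes). Those 5 included *Cxcr6*, which was not called with all controls, and did not include *Cxcr3*. With any single library left out, *Cxcr3* was not called at late and *Cxcr5* was not called at mid.

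Promoter sequence was read for the receptors that fell and rose most. RefSeq (GRCm38.p6) gave start sites for 7 of the 9 genes, which left *Ccr7* and *Cxcr5* without one. The windows below are the 250 bases before the start of *Ccr9* (chr9:123766961-123767210, plus strand), *Cxcr4* (chr1:128592300-128592549, minus strand) and *Cx3cr1* (chr9:120068297-120068546, minus strand), and for *Cxcr3* (chrX:101734270-101734397, minus strand) the 128 bases of that window that lie outside its annotated transcript. *Ccr9* and *Cxcr4* are shown as receptors that fell and *Cxcr3* and *Cx3cr1* as receptors that rose. Capitals mark matches, on either strand, to short motifs of factor families known in T cells, namely RUNX (TGTGGT), T-box (GGTGTGA), KLF (CCACCC), FOXO (GTAAACA), TCF (TCAAAG) and AP-1 (TGANTCA).
Ccr9: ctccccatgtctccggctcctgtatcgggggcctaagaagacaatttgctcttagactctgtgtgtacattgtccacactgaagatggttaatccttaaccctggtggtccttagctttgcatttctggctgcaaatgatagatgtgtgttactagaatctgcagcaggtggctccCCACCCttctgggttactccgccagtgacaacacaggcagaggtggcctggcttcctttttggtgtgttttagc
Cxcr4: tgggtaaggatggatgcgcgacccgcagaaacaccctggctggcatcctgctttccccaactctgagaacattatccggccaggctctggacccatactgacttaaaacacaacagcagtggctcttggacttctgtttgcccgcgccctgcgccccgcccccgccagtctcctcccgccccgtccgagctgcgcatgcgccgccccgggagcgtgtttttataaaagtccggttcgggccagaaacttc
Cxcr3: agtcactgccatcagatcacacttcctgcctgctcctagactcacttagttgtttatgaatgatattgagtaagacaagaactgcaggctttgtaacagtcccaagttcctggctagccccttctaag
Cx3cr1: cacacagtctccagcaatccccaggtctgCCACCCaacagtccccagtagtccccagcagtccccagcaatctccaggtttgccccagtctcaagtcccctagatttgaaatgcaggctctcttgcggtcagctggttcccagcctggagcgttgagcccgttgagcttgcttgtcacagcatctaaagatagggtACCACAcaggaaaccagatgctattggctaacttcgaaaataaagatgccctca
The *Ccr9* window held 1 KLF match, at 74 bases before the start, and the *Cx3cr1* window 1 KLF match and 1 RUNX match. The *Cxcr4* and *Cxcr3* windows held no match to the 6 motifs. Over 32851 windows of 250 bases before RefSeq starts, 28.1% held the KLF letters, 14.0% the RUNX letters, 13.8% the TCF letters, 6.75% the AP-1 letters, 3.33% the T-box letters and 3.17% the FOXO letters, so matches of this kind are common.

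Late and mid liver libraries were compared to ask whether the receptors moved further with time. By edgeR 0 of the 9 receptors were called and 0 of the 14600 genes (0.0%), with 2 of the 9 and 780 genes at an unadjusted p under 0.05, and DESeq2 called *Ccr9* alone of the 9. Those 2 were *Ccr9* (log2 fold change -2.95, SE 0.96, adjusted p = 0.910) and *Ccrl2* (1.35, SE 0.44, adjusted p = 0.910). *Cx3cr1* had a late to mid difference of 2.23 on the log2 scale (SE 1.12, adjusted p = 0.910) and *Cxcr3* of -1.21 (SE 0.90, adjusted p = 0.936).

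Undivided cells from spleen of leukemia-bearing mice lay near the controls for most receptors. The undivided library held 1019 CPM of *Ccr7*, 177 of *Ccr9* and 36.2 of *Cxcr4*. *Cxcr3* was at 6.23 CPM and *Cxcr5* at 4.08 CPM, within the range of the controls. *Cxcr6* was at 149 CPM, above the day 18 control (133 CPM) and the day 0 controls. *Cx3cr1* was covered by 2 estimated counts (0.07 CPM). By edgeR 0 of the 9 receptors were called between the undivided library and the controls (0.0% of all genes were called, 182 genes and 0 receptors had an unadjusted p under 0.05, and DESeq2 called 0 of the 9), with 1 undivided library that was assumed to vary like the others. Against the undivided library, the late liver libraries had 0 of 9 receptors called by edgeR (0.0% of genes, and 3782 genes and 4 of the 9 at an unadjusted p under 0.05), and DESeq2 called the same 4, *Ccr9*, *Cxcr3*, *Cx3cr1* and *Ccrl2*. Of these *Ccr9* had an edgeR log2 fold change of -5.91 (SE 1.22, adjusted p = 0.102) and *Ccrl2* one of 2.48 (SE 0.69, adjusted p = 0.108).

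At day 7 the 2 early liver libraries were unlike each other. Early liver replicate 1 held 591 CPM of *Ccr7*, 34.0 of *Ccr9*, 12.0 of *Cxcr4*, 101 of *Cxcr3*, 27.2 of *Cxcr5* and 14.9 of *Cx3cr1*, outside the control range for each. Early liver replicate 2 held 1488 CPM of *Ccr7*, 191 of *Ccr9*, 64.3 of *Cxcr4*, 9.74 of *Cxcr3*, 5.76 of *Cxcr5* and 0.47 of *Cx3cr1*, all within the control range except *Ccr7*, which was above it. The ratio of replicate 1 to replicate 2 was 31.8 for *Cx3cr1*, 22.03 for *Ccr2*, 10.3 for *Cxcr3* and 0.178 for *Ccr9*. Both were of 1 series, day and tissue. In the paper the early samples also clustered apart, with controls and with mid samples. In replicates 1 and 2, CD8 T cell markers summed to 4860 and 6859 CPM and natural killer cell markers to 10.4 and 0.81. Dendritic cell markers summed to 30.6 and 5.98 CPM, and monocyte and macrophage markers to 12.8 and 9.90. Neutrophil markers (0.65 and 10.7 CPM) and red cell markers (3.31 and 106 CPM) were higher in replicate 2. The part of other cells in these ratios was not tested. With both libraries, 0 of 9 receptors and 0 of 14600 genes (0.0%) were called by edgeR against control, 3 of the 9 and 1493 genes had an unadjusted p under 0.05, and DESeq2 called *Cxcr3* and *Cxcr5* among 350 genes in all. Without replicate 2, 5 of the 9 and 1902 genes in all were called, and without replicate 1, 0 of the 9 and 1 gene in all.

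**Figure D3:**
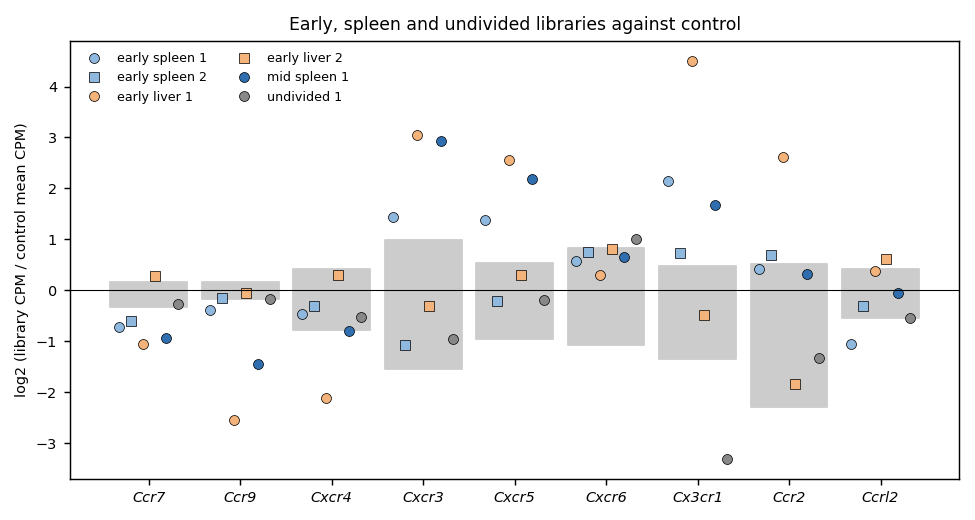
Log2 ratio of the CPM of each early, mid spleen and undivided library to the control mean (y axis) for the 9 receptors, with grey bars for the range of the 3 controls, circles for replicate 1 and squares for replicate 2. Early liver replicate 1 lies outside the grey bar for Ccr7, Ccr9, Cxcr4, Cxcr3, Cxcr5, Cx3cr1 and Ccr2, and the mid spleen library lies above it for Cxcr3, Cxcr5 and Cx3cr1.

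Spleens of leukemia-bearing mice allowed the receptors to be read without a change of tissue. In the early spleen libraries *Cxcr3* was at 32.8 and 5.78 CPM and *Cxcr5* at 12.1 and 4.05 CPM, so that replicate 1 was above the controls for both and replicate 2 was not. *Ccr7* was at 753 and 817 CPM, below the 3 controls, and *Ccr9* at 152 and 179.6 CPM. In the mid spleen library *Cxcr3* was at 92.5 CPM, *Cxcr5* at 21.2 CPM and *Cx3cr1* at 2.09 CPM, above the controls, and *Ccr7* at 640.1 CPM and *Ccr9* at 72.6 CPM, below them. *Cxcr4*, at 30.0 CPM, was just under the lowest control, and *Ccrl2* (4.10 CPM), *Ccr2* (2.39 CPM) and *Cxcr6* (117 CPM) were within the control range. The mid liver to mid spleen ratio of means was 0.326 for *Ccr9*, 0.349 for *Cxcr4*, 2.32 for *Cxcr3* and 4.24 for *Ccr2*.

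In the fit of all 14 libraries (15449 genes tested), 0 of the 9 receptors were called in any of the 4 spleen comparisons by edgeR or by DESeq2. For early spleen against control 0.0% of genes were called, and 970 genes and 0 receptors had an unadjusted p under 0.05. For early liver against early spleen 0.0% of genes were called, and 1391 genes and 1 receptor, *Ccrl2*, had an unadjusted p under 0.05 (log2 fold change 1.13, SE 0.51, adjusted p = 0.545). For mid spleen against control, with 1 spleen library assumed to vary like the others, 0.00647% of genes were called. There 795 genes had an unadjusted p under 0.05, among them *Cxcr3* (3.75, SE 1.18, adjusted p = 0.840) and *Cxcr5* (2.52, SE 0.84, adjusted p = 0.840). For mid liver against mid spleen 0.00647% of genes were called, and 897 genes and 0 receptors had an unadjusted p under 0.05.

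Levels of different genes can be compared only per length, for which the deposited TPM served. In controls the order was *Ccr7* (598 ± 86.4 TPM, SD, n = 3), *Ccr9* (60.5 ± 7.96), *Cxcr6* (36.4 ± 28.9), *Cxcr4* (33.1 ± 13.5), *Cxcr3* (6.13 ± 4.31), *Ccrl2* (2.35 ± 0.385), *Cxcr5* (1.86 ± 0.777), *Ccr2* (0.510 ± 0.370) and *Cx3cr1* (0.165 ± 0.0794). The ranges of *Ccr9*, *Cxcr6* and *Cxcr4*, of *Ccrl2* and *Cxcr5*, and of *Ccr2* and *Cx3cr1* overlapped between neighbours in that order. In mid liver *Cxcr3* was second with 101 ± 34.1 TPM (n = 3), and its range overlapped that of *Cxcr6* (48.5 ± 23.6 TPM). In late liver *Ccr7* was first (202 ± 89.0 TPM, n = 2), followed by *Cxcr6* (54.0 ± 0.218) and *Cxcr3* (47.4 ± 25.9), and *Ccr9* was last (0.586 ± 0.372), with ranges that overlapped between *Cxcr6* and *Cxcr3* and between *Ccr2* and *Ccr9*.

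The summed TPM of the 9 genes and 16 other receptors was 680.5 to 849 in controls, 356 to 464 in mid liver and 317 and 464 in late liver. *Ccr7* made up 77.2% to 82.1% of that sum in controls, 42.1% to 65.2% in mid liver and 43.7% and 57.0% in late liver. *Ccr9* fell from 7.86% to 8.19% of the sum in controls to 0.0695% and 0.267% in late liver. *Cxcr3* took 0.372% to 1.61% in controls, 13.4% to 32.5% in mid liver and 6.26% and 20.7% in late liver. A share depends on all receptors in the sum, and *Ccr8*, a receptor outside the 9, reached 5.23% and 12.5% of it in late liver against at most 0.00431% in controls.

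**Figure D4:**
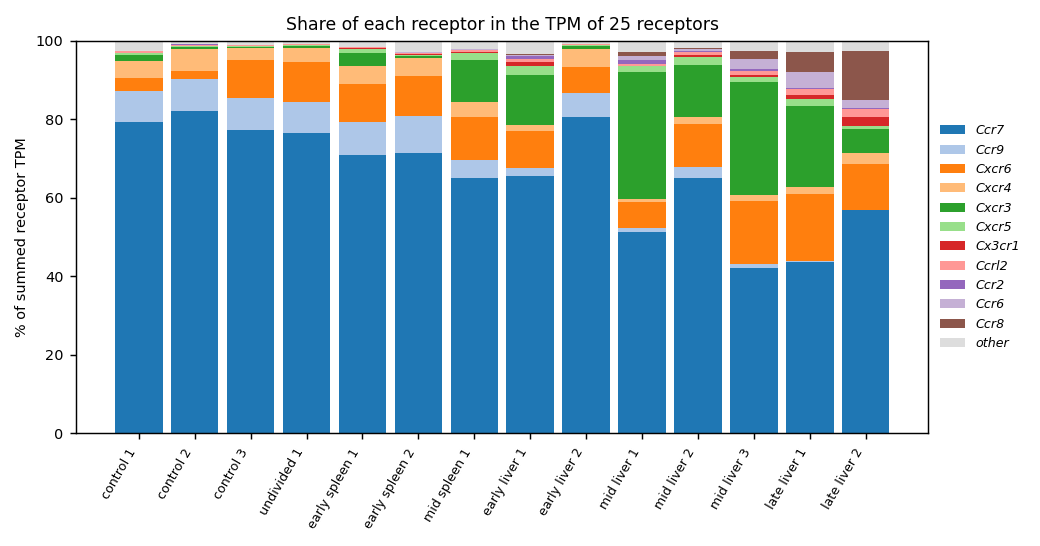
Percent of the summed deposited TPM of 25 receptors (bars from 0 to 100) held by each of 11 named receptors, and by the rest together, in each of 14 libraries. Ccr7 takes 77.2% to 82.1% in controls and 42.1% to 65.2% in mid liver, where Cxcr3 takes 13.4% to 32.5%.

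Counts per transcript showed which annotated forms carried these levels. *Ccr7* and *Cxcr3* have 1 transcript each in the annotation. *Cx3cr1*-202 held 84.9% to 88.4% of the gene's counts in the 3 mid liver libraries and 84.2% and 87.4% in the 2 late ones. It held 71.7%, 0.0% and 16.3% in controls, from 8 to 53 counts of the gene. The start of *Cx3cr1*-202 lies 13 bases from that of *Cx3cr1*-201, so that the split between them is an estimate from nearly shared 5′ ends. *Ccr9*-201 held 51.8% to 61.1% of *Ccr9* counts in controls and 46.5% to 58.0% in mid liver. *Ccr9*-206, annotated with a retained intron, held 4.45% to 11.1% in controls, 17.5% and 26.5% in early liver and 2.94% to 12.8% in mid liver. *Ccr9* shares 21.7% of its 31-base words with other annotated genes, so part of its counts rests on how reads were divided among them.

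Among 16 other chemokine and atypical receptors, 8 were tested, and 6 changed at mid (4 higher, 2 lower) and 7 at late (4 higher, 3 lower). Over all genes 31.3% were called at mid (17.3% higher, 13.9% lower) and 37.5% at late (19.8% higher, 17.7% lower). The median log2 fold change of those 8 was 1.25 at mid and 1.02 at late, against -0.06 and -0.03 over all genes tested. *Ccr8*, the CCL1 receptor known from skin-homing and regulatory T cells, was covered by 0, 0 and 1 counts in controls and by 357, 53 and 284 counts (6.19, 1.92 and 10.4 CPM) in mid liver and 1668 and 2593 counts (36.3 and 73.5 CPM) in late liver. The ratio of pooled late to pooled control counts per depth was 6035 (95% exact interval for counting error 1083 to 238407, adjusted p of the fit 0.00812). No control or undivided library held 10 counts of *Ccr8*, so it passed the count filter through liver libraries alone. That adjusted p is therefore no support of its own. The 3 CD4 and regulatory T cell markers summed to 6.33, 3.88 and 2.56 CPM in controls, 8.31, 9.57 and 7.60 in mid liver and 8.09 and 11.2 in late liver, with 1 of 3 called higher at mid and 2 of 3 at late, and their part in the *Ccr8* level was not tested. *Ccr6*, the CCL20 receptor, was at 0.75, 0.10 and 0.16 CPM in controls, 6.05, 1.74 and 16.2 in mid liver and 30.8 and 12.7 in late liver (late log2 fold change 5.91, SE 1.06, adjusted p = 0.0114). *Ccr6* passed the count filter mostly through liver libraries, so its adjusted p is weak support.

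*Ccr10*, from 1 control count in all, was also called higher at both times, with at most 1.98 CPM. It too passed the count filter through liver libraries alone, and the receptors counted as higher include it and *Ccr8*. *Xcr1*, known from cross-presenting dendritic cells, *Cxcr2*, known from neutrophils, and, at late, *Ackr4*, a scavenger of CCL19, CCL21 and CCL25, were called lower. Mean levels were low for *Cxcr2* (4.01 CPM in controls, 1.76 in late liver) and for *Ackr4* (0.66 and 0.16 CPM). *Xcr1* stood at 13.3, 14.7 and 3.83 CPM in controls and 3.76 and 1.64 in late liver (-2.07, SE 0.65, adjusted p = 0.0366). The 7 dendritic cell markers summed to 48.7, 42.7 and 6.68 CPM in controls, 32.3, 19.9 and 15.0 in mid liver and 10.03 and 10.1 in late liver, with 1 of 3 tested called lower at both times, and their part in the *Xcr1* level was not tested. *Ccr3*, known from eosinophils, was at 22.3, 3.299 and 0.26 CPM in controls, highest in the day 0 library with most monocyte and macrophage RNA, and did not pass the count filter of the 11-library fit.

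**Figure D5:**
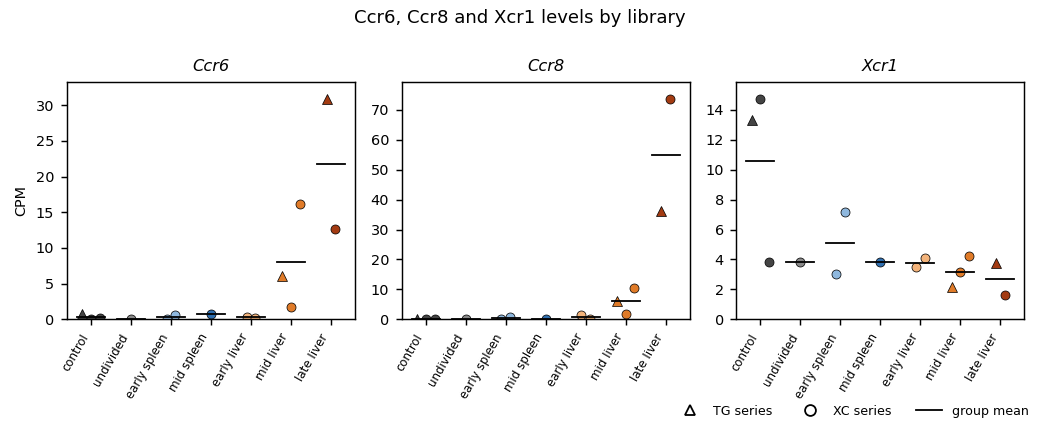
CPM (linear axes from 0) of Ccr6, Ccr8 and Xcr1 in each of 14 libraries by group, with triangles for the TG series, circles for the XC series and lines for group means. Ccr8 reaches 36.3 and 73.5 CPM in the 2 late liver libraries, against at most 0.03 CPM in the controls.

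Of 15 genes of ligands of the 9 receptors that had a value, 4 passed the count filter and 2 were called, both lower at both times. Over all genes 31.3% were called at mid (13.9% lower) and 37.5% at late (17.7% lower), and 4 genes are too few to set against these shares. *Cxcl16*, the CXCR6 ligand, fell by 2.96 (SE 0.62, adjusted p = 0.0220) at mid and by 2.62 (SE 0.70, adjusted p = 0.0227) at late on the log2 scale, and *Cxcl9*, a CXCR3 ligand, fell by 3.01 (SE 0.81, adjusted p = 0.0280) and 3.80 (SE 1.01, adjusted p = 0.0220). Both are known from macrophages, whose markers were highest in the day 0 controls, and that part was not tested. *Cxcl10*, another CXCR3 ligand (0.61, SE 0.75, adjusted p = 0.542 at mid), and *Ccl25*, the CCR9 ligand (-0.44, SE 0.29, adjusted p = 0.255 at mid), did not pass the threshold at either time.

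Of 20 genes that carry signals from chemokine receptors, 8 changed at mid and 8 at late, 4 in each direction at both times, near the 31.3% and 37.5% called over all genes, with median log2 fold changes of 0.15 and 0.04. The G protein subunit genes *Gng2* (1.69, SE 0.26, adjusted p = 0.0204 at mid) and *Gnb1* (0.60, SE 0.17, adjusted p = 0.0339) rose, as did *Pik3cg*, the catalytic subunit of PI3K gamma (0.62, SE 0.19, adjusted p = 0.0394). *Rhoh*, a small GTPase of hematopoietic cells (-1.04, SE 0.24, adjusted p = 0.0230), *Dock2*, the Rac activator in migrating lymphocytes (-1.13, SE 0.29, adjusted p = 0.0255), and *Pik3r5*, a regulatory subunit of PI3K gamma (-1.06, SE 0.31, adjusted p = 0.0347), fell. At late the smallest adjusted p-values were those of *Gng2* (1.90, adjusted p = 0.00865), *Gnb1* (0.87, adjusted p = 0.0148) and the integrin-activating GTPase gene *Rap1a* (1.01, adjusted p = 0.0203) among the genes that rose, and of *Pik3r5* (-1.48, adjusted p = 0.0182), *Dock2* (-1.25, adjusted p = 0.0213) and the phospholipase gene *Plcb2* (-1.02, adjusted p = 0.0267) among those that fell.

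Of 14 genes that dampen G protein-coupled receptors (kinases, arrestins and regulators of G protein signalling), 12 were tested, and 3 changed at mid and 2 at late. Over all genes 31.3% were called at mid and 37.5% at late, and 12 genes are few to set against these shares. *Rgs16* had the largest rise, from a mean of 0.278 CPM in controls to 149 CPM in mid and 179 CPM in late liver (log2 fold change 9.06, SE 1.46, adjusted p = 0.0217 at mid). *Rgs3* rose at both times (0.84, SE 0.27, adjusted p = 0.0459 at mid), and *Rgs14* fell at mid (-0.80, SE 0.22, adjusted p = 0.0292). The arrestin genes *Arrb1* and *Arrb2* and the kinase genes *Grk2*, *Grk5* and *Grk6* did not pass the threshold at mid or late.

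Genes whose pattern over the 14 libraries was most like each receptor were ranked by Pearson's r of log2 CPM after removal of the series effect, among 9025 genes, as a description that leans on the shared division between control-like and liver libraries. For *Ccr9* they were *Kcna2* (0.994), *Slc16a5* (0.988) and *Spice1* (0.982). Among the 3 genes most like *Cxcr3* were *Ifng* (0.965) and *Hcfc1* (0.957), and among the 3 most like *Cx3cr1* were *Klrk1* (0.947) and *Plek* (0.939). *Ccr7* was followed by *Fam169b* (0.966), *Crtc3* (0.964) and *Arntl* (0.964), and *Cxcr4* by *Hist3h2a* (0.970), *Dusp10* (0.963) and *Fam102a* (0.961). The nearest to *Cxcr5* were *Ewsr1* (0.928), *Pou2af1* (0.918) and *Dhx37* (0.915), those to *Ccrl2* were *Klf9* (0.913), *Bcl2l11* (0.897) and *Plod3* (0.895), those to *Cxcr6* were *Synj2* (0.910), *Pigb* (0.900) and *Ctsw* (0.892), and those to *Ccr2* were *Ube2v2* (0.866), *Otud6b* (0.857) and *Slc29a3* (0.846). Among the receptors themselves *Ccr7* and *Cxcr4* (0.896) and *Cxcr3* and *Cxcr5* (0.912) were most alike over these libraries, and *Ccr7* and *Cxcr3* (-0.869) most opposite.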

How the data were processed

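RNA-seq of sorted Tg101 T cells was deposited as 26 runs of 15 libraries (14 low-input, 1 oligo-dT). The authors quantified transcripts with kallisto (builds mm10 and GRCm38 per the labels, versions not given in the sources used here) and deposited estimated counts (expected counts, not whole numbers) and TPM, normalized for length and depth. Here the transcripts of each gene were added up after GENCODE vM21 (98.18% of transcripts, 98.9% to 99.2% of counts), then the runs of each library, and the sums rounded. A gene needed 10 or more counts in 6 or more libraries and was tested with edgeR 4.0.16 (quasi-likelihood, robust, TMM, two-sided, group and series as terms, Benjamini-Hochberg, threshold 0.05) in R 4.3.3, in a fit of 11 libraries for the liver and undivided comparisons (14600 genes) and of 14 for the spleen comparisons. DESeq2 1.42.0 was an alternative, as were RLE factors, no series term, no count filter, other libraries, day 0 controls alone, TPM, single runs and each replicate left out. The series effect was removed with limma 3.58.1 for the correlations only, with a prior count of 2. Python 3.11.15 with pandas 2.3.3 and matplotlib 3.10.9 made tables and plots.

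The 9 receptors and all gene lists were chosen with earlier results of these data known. Named genes were the 9 receptors, up to 3 called genes a direction with the smallest adjusted p from each pathway list at mid and late, other receptors with a mean of at least 5 CPM in a group, and the 3 genes most like each receptor among those with a mean log2 CPM of at least 3. Depth makes counting error small for most receptors, and the number of libraries limits the precision. Reads without molecular identifiers are not independent molecules, so the counting interval covers counting error only. A few genes that these rules name are not reported here.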

Additional observations from a re-analysis of the deposited data

Results flagged for a closer look

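The oligo-dT library, made from naive Tg101 T cells and used in no comparison, held 326 CPM of *Cxcr4* (not scaled by TMM, from 7505 counts), above the 3 low-input controls at 58.3, 71.6 and 33.4 CPM on the same scale. It also held 3.302 CPM of *Cx3cr1* (76 counts), above 0.815, 0.950 and 0.285 CPM in the controls. The other 7 receptors were not above the highest control. These are values of 1 library with another priming method, and the part of the method in them was not tested.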

How the results depend on the processing

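Of the receptors' log2 fold changes recomputed under alternatives, 253 kept their direction and side of the threshold, 32 gained and 59 lost it, and 1 reversed (*Cx3cr1*, early liver against control without early liver replicate 1, -0.82 on the log2 scale, where leaving out single libraries gave -0.82 to 4.15). The number of receptors called fell from 5 at mid and 5 at late to 3 at mid with no series term, to 3 at mid with day 0 controls alone and to 0 at both with XC libraries alone. Leaving out 1 library gave 0 to 3 at mid, 0 to 5 at late and 0 to 5 for early liver against control. DESeq2 called 8 at late, 2 at early, 1 for late against mid and 4 for late against undivided. Without a count filter 8 were called at late, 4 at early, 3 for late against mid, 4 for late against undivided, 1 for undivided against control, 1 for early spleen against control, 2 for early liver against early spleen, 3 for mid spleen against control and 2 for mid liver against mid spleen, and the median log2 fold change of all genes at late moved to -0.17. With the libraries of the 2 groups alone 1 was called for mid spleen against control. The cause was not tested. Counts called over all genes at mid were 4567 by edgeR and 1385 with no series term. No paired analysis was possible because the labels give no replicate numbers shared between groups. Groups of 1 to 3 libraries limit every comparison, and *Cx3cr1* and *Ccr2* in controls rest on 8 to 183 counts.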
